A study of Homo sapiens with 18 samples.

Results

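The steady-state effect of silencing Lonp1 was read from RNAseq of SW620 cells, a human colon cancer line, kept at 37 °C throughout. Lonp1 was silenced by RNA interference (siLonp1), a scramble siRNA served as control, and 3 libraries were made from each. The same 2 groups were also held at 42 °C for 1 h (HS), or at 42 °C for 1 h followed by 1 h at 37 °C (HS+REC), which gave 18 libraries in 6 groups of 3. Every group was the same cell line and went through transfection, and no untransfected group was analysed here. The methods name 3 independent biological replicates and 2 siRNAs against Lonp1 delivered with a lipid reagent, without saying which siRNA was used for RNAseq. The effect of lower LONP1 mRNA and any other effect of the siRNA cannot be told apart in this design.

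The genes described are those above 1 CPM, a gene's counts scaled to a common library size, in at least 3 of the 6 libraries at 37 °C, which 12388 of the 26485 genes in the count table met. SPOCD1 lay just inside this limit and PRKG1 just outside, and the value that decides, the 3rd highest of the 6 libraries, was 1.0042 and 0.9997 CPM. The model was fitted over 18 libraries and 12832 genes, and only the 12388 are described. Below, "raised" and "lowered" stand for an adjusted p of at most 0.05 with a change of more than 2-fold, and "higher" and "lower" for the same adjusted p at any fold change. Values per library are CPM after TMM scaling, and differences are log2 fold changes of siLonp1 over scramble with their standard errors. All adjusted p-values are from edgeR's quasi-likelihood test with Benjamini-Hochberg adjustment. The standard errors were derived from that test, as the size of a change over the square root of its F statistic. They are approximate for the smallest changes.

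LONP1 is the ATP-dependent Lon protease of the mitochondrial matrix, where it degrades oxidised or misfolded proteins, acts as a chaperone and binds mitochondrial DNA. It is one of several proteases that keep the organelle's proteome in order, beside ClpXP in the matrix and the AAA proteases of the inner membrane. Cells with damaged mitochondria are known to signal to the nucleus, and the integrated stress response through ATF4 is the best described route in mammals. A part of the LONP1 protein in the nucleus is the subject of the study, and the comparison at 37 °C gives the state from which its heated cells started.

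The 6 libraries held between 38838617 and 45013503 counts, and the 10 genes with most counts took 4.92% to 5.6% of a library. TMM factors were 1.05 to 1.06 in scramble and 0.993 to 1.01 in siLonp1, so scaling moved with the groups. Summed over 12 markers of colon epithelium, 9273.8 to 9689.7 CPM were counted in scramble and 10318.0 to 11011.8 in siLonp1, and CDX1 was at 0 (exact permutation test of the sums, two-sided, p = 0.1, the smallest that 3 against 3 allow). Most of that sum came from KRT8 and KRT18, and of the 9 markers above the CPM limit 2 were higher and 3, CDX2, CDH17 and CEACAM5, were lower. EPCAM, KRT8 and KRT18 were abundant in all 6 libraries, whereas KRT20 and LGALS4 stayed near or under 1 CPM. The 9 blood markers summed to 28.1 to 31 CPM in scramble and 28.3 to 30.9 in siLonp1, and PTPRC, CD3E and HBB were at or near 0. That sum came mostly from CD4 and CD68, which were higher (0.48 ± 0.09 and 0.35 ± 0.1), and LYZ, which was lowered (-1.52 ± 0.12). The 8 fibroblast markers summed to 41.7 to 47.6 CPM in scramble and 24.1 to 25.9 in siLonp1, and COL1A2, COL3A1, DCN and PDGFRA were at or near 0. Of the expressed members, LUM was lowered (-1.49 ± 0.1), PDGFRB was raised (1.17 ± 0.19) and COL1A1 did not pass. RNA from a cell culture is measured in bulk, so more cells expressing a gene and more RNA per cell cannot be told apart.

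LONP1 itself (RefSeq, GRCh38.p14, chr19:5691834-5720452) was measured first. It was at 222.6, 225.2 and 214.5 CPM in the scramble libraries and at 19.4, 22.5 and 19.5 CPM in the siLonp1 libraries. The groups lay far apart, and the log2 fold change was -3.43 ± 0.08 (adjusted p = 1.74e-19), which leaves 9.26% of the mRNA.

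At 37 °C, 295 genes were raised, 2.38% of the 12388, and 157 were lowered, 1.27%. In all 452 genes the 3 siLonp1 libraries lay wholly above or wholly below the 3 scramble libraries, as they did in 7914 of the 12388 genes (63.9%). Without the fold limit, 3302 genes (26.7%) were higher and 2872 (23.2%) were lower, while 6214 did not pass. By size, 4638 of the 6174 genes that passed changed by less than 1.5-fold and 1084 by 1.5-fold to 2-fold. Among raised genes 14 rose by more than 4-fold, and among lowered genes 18 fell by more than 4-fold. Of the genes that passed at any fold, 53.5% were higher, and of the raised and lowered genes 65.3% were raised. With scaling by library size alone, which leaves the median log2 fold change of all 12388 genes at -0.063 in place of 0.012, these shares were 39.1% and 52.4%. Raised genes had a median of 4.23 CPM in scramble and 11.3 CPM in siLonp1, and lowered genes 3 and 1.16 CPM. Their low level makes the counts depend on the CPM limit: over genes above 1 CPM in all 6 libraries 230 were raised and 81 lowered, and with no filter on low counts 481 and 374. By RefSeq class, 286 of 11581 protein-coding genes (2.47%) were raised and 119 (1.03%) lowered. Of 409 long non-coding RNA genes, 7 (1.71%) were raised and 24 (5.87%) lowered. Other classes leaned the same way: of 179 pseudogenes 0 were raised and 7 (3.91%) lowered. Of 164 genes without a RefSeq match 2 (1.22%) were raised and 7 (4.27%) lowered.

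**Figure D1:**
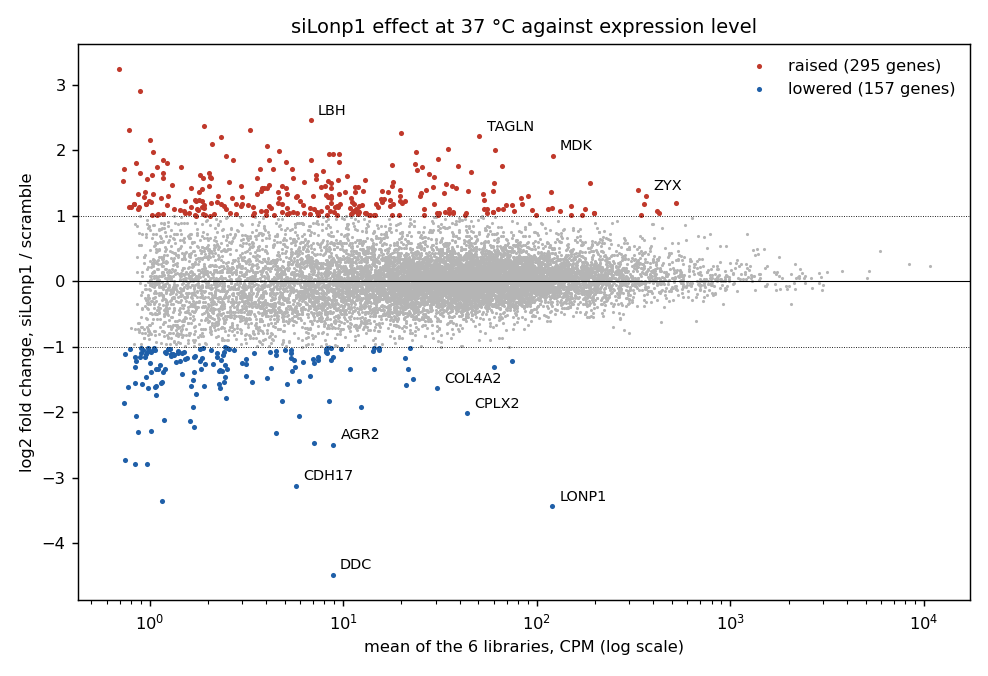
Log2 fold change of siLonp1 over scramble at 37 °C (vertical axis) against the mean of the 6 libraries in CPM (horizontal axis, log scale), 1 point per gene, with 295 raised genes in red, 157 lowered genes in blue and dotted lines at 2-fold. Red points are more numerous than blue points, and LONP1 at -3.43 stands apart from genes of a similar level.

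Genes were named by size of change among those whose libraries did not overlap between groups and that had at least 0.5 CPM in the lower group. TAGLN (chr11:117199294-117207465), which encodes the actin-binding protein transgelin, was at 18.4, 19.2 and 16.1 CPM in scramble. In siLonp1 it was at 88.0, 86.6 and 75.1 CPM, so that the lowest siLonp1 library stood far above the highest scramble library (log2 fold change 2.22 ± 0.09, adjusted p = 1.08e-14). LBH (chr2:30231534-30260028), a transcriptional cofactor known as a WNT target, rose from 1.8, 2.29 and 2.14 CPM to 10.9, 12.2 and 11.4 CPM (2.46 ± 0.13, adjusted p = 3.79e-13). NGFR (chr17:49495293-49515008), the p75 neurotrophin receptor, rose from 7.27, 6.92 and 6.53 CPM to 34.1, 32.3 and 32.7 CPM (2.26 ± 0.1). The replicates of both genes varied little against the gap between groups. NID1 (chr1:235975830-236065090), the basement membrane linker nidogen, was at 24.7, 23.5 and 24.7 CPM against 101.2, 99.3 and 93.6 CPM (2.01 ± 0.08).

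The other genes of the 12 with the largest rise were MDGA1, a cell surface protein of the synapse (2.38), PRICKLE2, of planar cell polarity (2.31), SYT12, a synaptotagmin (2.1), WNT7B and WNT6, WNT ligands (2.2 and 2.07), DKK1, a secreted inhibitor of WNT receptors (2.02), and the keratins KRT17 and KRT81 (1.99 and 1.97). MDGA1, WNT7B and SYT12 averaged 0.624, 0.833 and 0.799 CPM in scramble and met the CPM limit through the siLonp1 libraries. DKK1 (chr10:52314281-52317657) was measured most firmly of the WNT genes, at 14.7, 14.6 and 12.1 CPM against 56.8, 53.1 and 58.1 CPM. KRT81 shares long stretches with other hair keratins, so its reads may be split among them by the counting. Of the 8 higher genes with the smallest p, TAGLN, NID1 and NGFR were already named. The others were MDK, which encodes the growth factor midkine, ITGA7, the integrin subunit that pairs with beta1 to bind laminin, EMP2, a tetraspan membrane protein, IL23A, the p19 subunit of interleukin 23, and ARID3B, a DNA-binding protein. MDK (chr11:46380784-46383837) was at 49.5, 52.9 and 49.3 CPM in scramble and at 194.9, 195.9 and 183.1 CPM in siLonp1 (1.92 ± 0.08, adjusted p = 9.17e-15).

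By the same rule, DDC (chr7:50458442-50565405), the decarboxylase that makes dopamine and serotonin, was at 14.7, 17.4 and 18.6 CPM in scramble and at 0.585, 0.642 and 1.05 CPM in siLonp1. Its log2 fold change of -4.48 ± 0.16 (adjusted p = 4.21e-15) exceeded that of LONP1 in size. CDH17, the liver-intestine cadherin, fell from 10.5, 9.47 and 10.8 CPM to 1.09, 1.06 and 1.38 CPM (-3.12 ± 0.14, adjusted p = 2.88e-14). AGR2 (chr7:16791811-16804999), a disulfide isomerase of mucus-secreting cells, fell from 14.2, 15.9 and 15.3 CPM to 2.49, 2.87 and 2.68 CPM (-2.49 ± 0.11). No siLonp1 library of these genes came near a scramble library.

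The other 8 beside LONP1 were TSPAN8, a tetraspanin of the gut surface (-2.47), PPFIBP2, a liprin (-2.32), CAPN8, a calpain of the gastrointestinal tract (-2.22), GAS2, a cytoskeletal linker (-2.13), ANKS4B, a part of the brush border adhesion complex (-2.06), CPLX2, a regulator of vesicle fusion (-2.01), the non-coding LINC01206 (-1.91) and TNFRSF11B, the decoy receptor osteoprotegerin (-1.91). CPLX2 had the deepest coverage of these, at 70.6, 69.2 and 70.0 CPM against 16.6, 18.7 and 16.6 CPM. CAPN8, GAS2 and LINC01206 averaged 0.596, 0.599 and 0.697 CPM in siLonp1 and met the CPM limit through the scramble libraries. Among the 8 lower genes with the smallest p, COL4A2 (chr13:110307284-110513209), a chain of basement membrane collagen, fell from 45.4, 46.2 and 47.1 CPM to 14.7, 15.8 and 14.4 CPM (-1.63 ± 0.06, adjusted p = 9.17e-15). KLRC2, which shares sequence with its neighbours in the NKG2 family, fell from 12.3, 13.8 and 13.4 CPM to 3.38, 3.61 and 4.16 CPM (-1.82 ± 0.1).

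**Figure D2:**
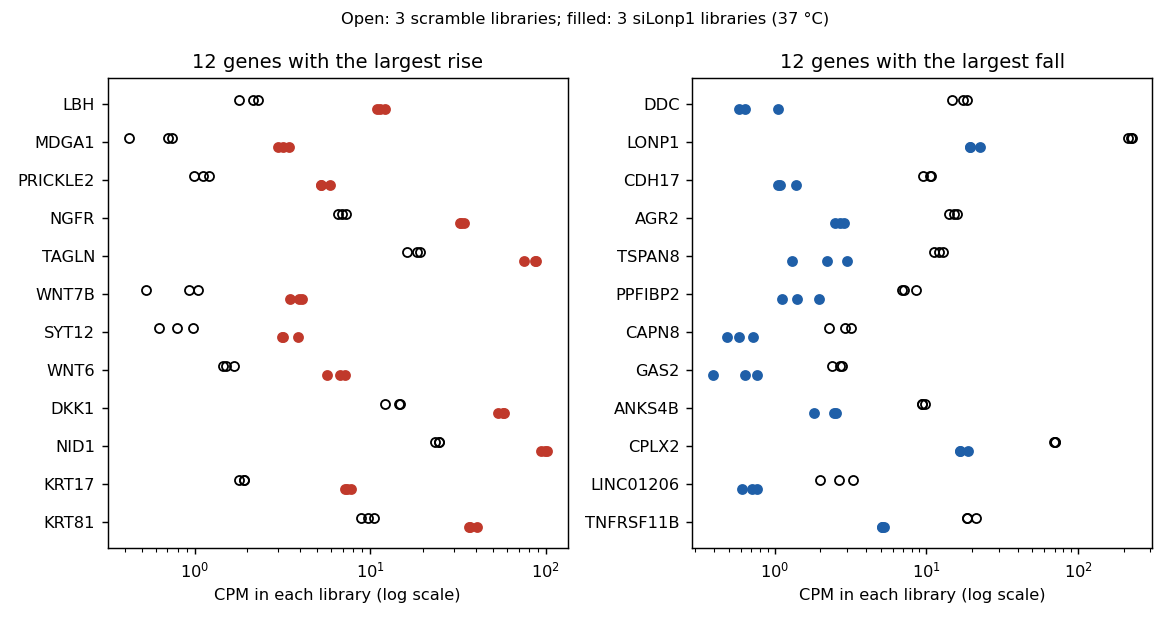
CPM in each of the 6 libraries at 37 °C (horizontal axis, log scale) for the 12 genes with the largest rise (left) and the largest fall (right), with scramble libraries as open points and siLonp1 libraries as filled points. The genes were chosen for libraries that do not overlap between groups, so the gap itself is no finding, and DDC shows the widest.

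Gene lists of pathways and organelles were then read as counts of members that passed, beside the 26.7% higher, the 23.2% lower and the median of 0.01 of all 12388 genes. A gene can stand in several lists (AXL and CYR61 do), so the lists are not independent of each other. No test of a list as a whole was made.

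The actin cytoskeleton list holds genes known as targets of serum response factor (SRF), which binds the CArG box together with cofactors of the MRTF family that are released when actin polymerises. Of its 22 members 18 were higher (81.8%), 2 were lower and 2 did not pass, with a median of 0.53. SRF itself (chr6:43171269-43181506) was at 160.3, 157.9 and 151.6 CPM in scramble and at 278.8, 267.9 and 248.9 CPM in siLonp1 (0.76 ± 0.07, adjusted p = 3.49e-09), with no overlap. Beside TAGLN, the largest rises were those of MYL9, a myosin regulatory light chain (1.4), ZYX, the focal adhesion protein zyxin (1.31), and FHL1, a LIM domain protein (1.22). ZYX was at 217.1, 213.3 and 201.9 CPM against 541.1, 550.8 and 471.3 CPM. The cytoplasmic actins rose by less, ACTG1 by 0.47 ± 0.06 and ACTB by 0.27 ± 0.06, and counts of the actins can be affected by their pseudogenes. The SRF cofactors moved apart: MKL1 (MRTFA) was higher by 0.32 ± 0.08 and MKL2 (MRTFB) lower by -0.43 ± 0.12. CALD1, which encodes caldesmon, was the other lower member (-0.18 ± 0.07), a call that was lost without scramble replicate 1 or 3 or siLonp1 replicate 1 or 3, or with no filter on low counts (adjusted p = 0.0512 to 0.132). ACTA2 and CNN1, smooth muscle genes of the list, did not reach the CPM limit.

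A CArG box, written CC, 6 bases of A or T, and GG, was searched on both strands of each promoter entry, the stretch around the RefSeq start (GRCh38.p14). It was found in 6 of the 18 listed genes with a promoter entry (33.3%), against 107 of 9906 members with an entry (1.08%) and 1.29% of 27305 promoters of the table. The list is made of genes known as SRF targets, and a match of letters is not evidence of binding in these cells. Among the largest rises of the list, ZYX and FHL1 held no match, and TAGLN and MYL9 had no promoter entry and were not searched. The 6 genes with a match were SRF, FHL2, CNN2, TPM4, ACTG1 and FLNA. The first 5 were higher and FLNA did not pass (0.2 ± 0.1, adjusted p = 0.0975). Upstream stretches of those 5 are shown because they hold the element in genes that rose, with the CArG box in capitals, 5′ to 3′ on the strand of the gene; FHL2, CNN2 and TPM4 were named here for their promoter, after their values were seen.
FHL2 (chr2:105438564-105438663, minus strand): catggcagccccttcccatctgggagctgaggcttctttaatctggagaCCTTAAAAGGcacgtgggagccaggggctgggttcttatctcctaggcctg
CNN2 (chr19:1026458-1026557, plus strand): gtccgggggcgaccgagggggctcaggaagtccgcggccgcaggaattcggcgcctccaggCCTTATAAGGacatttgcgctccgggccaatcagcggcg
SRF (chr6:43171169-43171268, plus strand): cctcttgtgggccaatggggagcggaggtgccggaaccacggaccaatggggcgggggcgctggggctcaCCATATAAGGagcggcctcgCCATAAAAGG
TPM4 (chr19:16067313-16067412, plus strand): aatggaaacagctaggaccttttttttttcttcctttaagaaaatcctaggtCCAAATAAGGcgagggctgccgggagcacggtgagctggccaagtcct
ACTG1 (chr17:81512850-81512949, minus strand): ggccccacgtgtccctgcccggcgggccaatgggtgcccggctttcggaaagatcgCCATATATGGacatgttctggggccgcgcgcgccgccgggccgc

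FHL2, a LIM domain cofactor, was at 76.7, 75.4 and 73.1 CPM in scramble and at 143.5, 128.1 and 139.5 CPM in siLonp1 (0.87 ± 0.07). CNN2, a calponin that binds actin, was at 573.4, 557.2 and 552.4 CPM against 935.3, 921.6 and 831.2 CPM (0.68 ± 0.07). TPM4, a tropomyosin, was at 657.5, 606.7 and 610.3 CPM against 828.1, 939.2 and 896.2 CPM (0.51 ± 0.06). In each of them every siLonp1 library was above every scramble library. Over all raised genes with a promoter entry the CArG box was found in 2.39% of 209, and over lowered genes in 3.33% of 120.

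The next list holds targets of YAP and the TEAD factors, which respond to cell shape and adhesion. Of 18 members 14 were higher (77.8%), 1 was lower and 3 did not pass, with a median of 0.55. AXL, a receptor tyrosine kinase, rose from 30.4, 31.2 and 28.3 CPM to 83.9, 73.4 and 68.9 CPM (1.33 ± 0.08, adjusted p = 1.09e-11). F3, tissue factor, ARHGEF17, a guanine nucleotide exchange factor, and ANKRD1, a nuclear ankyrin repeat protein, rose by 1.27, 1.13 and 1.05. NT5E, the ecto-nucleotidase CD73, was the lower member (-0.96 ± 0.2). The factors themselves moved less: WWTR1 (TAZ) was higher by 0.47 ± 0.08, and YAP1 had a change of 0.15 ± 0.07 (adjusted p = 0.0838). The 2 best known targets parted, since CYR61 was higher (0.58 ± 0.1, adjusted p = 5.58e-05) and CTGF was not, at 43.2, 39.2 and 42.2 CPM against 44.9, 39.7 and 42.6 CPM (0.03 ± 0.09, adjusted p = 0.809). The TEAD letters GGAATG were found in 4 of 13 listed promoters (30.8%), against 10.8% of members and 14% of the table, and the 2 genes with several copies are shown with each copy in capitals because they behaved differently.
ANKRD1 (chr10:90921188-90921337, minus strand): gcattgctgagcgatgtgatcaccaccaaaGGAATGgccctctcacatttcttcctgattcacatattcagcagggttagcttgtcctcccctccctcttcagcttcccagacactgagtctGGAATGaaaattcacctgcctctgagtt
CTGF (chr6:131951423-131951572, minus strand): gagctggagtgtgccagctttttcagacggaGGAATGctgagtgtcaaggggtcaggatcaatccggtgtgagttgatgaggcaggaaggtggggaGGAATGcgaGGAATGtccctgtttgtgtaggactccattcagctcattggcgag

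ANKRD1 was at 1.29, 0.778 and 1.06 CPM in scramble and at 2.19, 2.15 and 2.09 CPM in siLonp1, so the gene with 2 copies rose at a low level while CTGF, with 3 copies, did not pass.

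Receptor tyrosine kinases signal through RAS and the MAPK cascade, which induces its own phosphatases. In the list of receptor tyrosine kinases and MAPK feedback, 24 of 38 members were higher (63.2%), 2 were lower and 12 did not pass, with a median of 0.38. Among ligands, PDGFB (chr22:39223359-39244982), a platelet-derived growth factor chain, rose from 26.1, 23.9 and 23.5 CPM to 69.6, 61.1 and 60.6 CPM (1.38 ± 0.08, adjusted p = 3.31e-12). HBEGF and AREG, ligands of the EGF receptor, rose by 1.38 and 1.08. DUSP5, a phosphatase that ERK activity induces and that acts back on ERK, rose from 11.8, 11.8 and 10.5 CPM to 39.5, 34.1 and 37.4 CPM (1.7 ± 0.08), and DUSP6 by 0.43 ± 0.06. Among receptors, EPHA2 rose by 0.97 ± 0.08 and MET by 0.51 ± 0.08, whereas ERBB2 had a change of -0.06 ± 0.07 (adjusted p = 0.481). GRB7, an adaptor (-0.64 ± 0.1), and IGF1R, the receptor of insulin-like growth factor 1 (-0.31 ± 0.09), were the 2 lower members. EGFR did not reach the CPM limit.

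In the list of TGF-beta and BMP signalling, 22 of 36 members were higher (61.1%), 3 were lower and 11 did not pass, with a median of 0.3. The ligand TGFB1 rose from 50.1, 43.1 and 45.0 CPM to 98.0, 111.7 and 98.9 CPM (1.16 ± 0.1), with no overlap. GDF11, a further ligand, rose by 1.3 ± 0.08, and ID2, which BMP signalling is known to induce, by 0.8 ± 0.06. The signalling components TGFBR1, SMAD3 and SMAD2 rose by 0.48, 0.46 and 0.66. SMAD4, their shared partner, was higher by 0.47 ± 0.17 at a level of 1.24 to 1.54 CPM in scramble, and did not pass without scramble replicate 1 or 3 or siLonp1 replicate 1, or with library size alone (adjusted p = 0.0503 to 0.133). The lower members were TGFBR3, the co-receptor betaglycan (-1.58 ± 0.09), ACVR2B, an activin receptor (-0.64 ± 0.1), and SMAD7, the inhibitory SMAD (-0.57 ± 0.09). TGFBR3 was at 32.4, 29.5 and 32.8 CPM in scramble and at 9.69, 11.5 and 10.5 CPM in siLonp1.

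Of 25 collagens, laminins and related matrix genes, 15 were higher (60%), 2 were lower and 8 did not pass, with a median of 0.3. After NID1 the largest rises were those of COL8A2 (1.66), COL6A2 (1.47) and COL2A1 (1.19), and the lower members were COL4A2 and COL27A1 (-0.53). COL8A2 was near the detection limit, at 0.316, 0.505 and 0.456 CPM against 1.2, 1.31 and 1.58 CPM, whereas COL6A2 was at 1.95, 2.4 and 2.19 CPM against 6.26, 6.1 and 5.82 CPM. The fibrillar collagen COL1A1 and the laminin chain LAMC1 did not pass, with changes of 0.08 ± 0.11 and 0.05 ± 0.07. Of 60 genes of the list in the file 35 did not reach the CPM limit.

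Of 23 integrins, syndecans and related receptors, 16 were higher (69.6%), 4 were lower and 3 did not pass, with a median of 0.43. ITGA7 rose from 13.8, 14.0 and 12.2 CPM to 52.7, 45.3 and 48.4 CPM (1.87 ± 0.08, adjusted p = 9.17e-15). ITGB8, which activates latent TGF-beta, rose by 1.52, and the proteoglycans SDC4 and GPC1 by 1.07 and 1.06. ITGB1, the shared beta subunit, rose by 0.54 ± 0.06. The collagen-binding subunits ITGA1, ITGA10 and ITGA2 went the other way, by -1.78, -1.03 and -0.5, as did the hyaluronan receptor CD44 (-0.52). ITGA1 was at 3.65, 3.53 and 4.37 CPM in scramble and at 1.17, 0.964 and 1.23 CPM in siLonp1.

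Of 14 genes associated with mesenchymal transition, 11 were higher (78.6%) and 1 was lower, with a median of 0.46, among them AXL, PLAUR, the urokinase receptor (0.86), and MMP14, a membrane-bound metalloproteinase (0.68). Among the defining members of this list, VIM, which encodes vimentin, was lower (-0.3 ± 0.06), the transcription factor ZEB1 did not pass (0.14 ± 0.08), and CDH2, TWIST1 and ZEB2 did not reach the CPM limit. SNAI1 and SNAI2 were higher by 0.37 ± 0.09 and 0.31 ± 0.11, and SNAI2 did not pass without scramble replicate 2 or 3 or siLonp1 replicate 2, or with library size alone (adjusted p = 0.0747 to 0.132). The epithelial genes did not fall together. Of 33 junction and keratin genes 10 were higher (30.3%), 7 were lower (21.2%) and 16 did not pass, with a median of 0.07. CDH1, which encodes E-cadherin, rose from 112.3, 97.5 and 98.4 CPM to 152.2, 166.1 and 156.6 CPM (0.62 ± 0.06), as did TJP3, a tight junction scaffold (0.97), JUP, plakoglobin (0.68), and CLDN1 (0.6). DSC2, a desmosomal cadherin, and CGN, the tight junction protein cingulin, fell by 1.12 and 0.87 on the log2 scale.

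Of 19 genes of intestinal differentiation above the CPM limit, 10 were lower (52.6%), 4 were higher and 5 did not pass, with a median of -0.39. Both the counts and the median depend on that limit, because 4 lower members, FABP1, CEACAM5 and CEACAM6 among them, met it through the scramble libraries and ALPP through the siLonp1 libraries. KRT20, at a mean of 0.497 CPM in scramble and 0.975 in siLonp1, did not meet it. Over genes above 1 CPM in all 6 libraries 6 members were lower and 3 higher, and with no filter 11 and 6. The median was -0.05 with no filter on low counts and -0.15 over genes above 1 CPM in all 6 libraries. Of 43 listed genes in the file 24 did not reach the CPM limit, among them CDX1, KRT20, MUC2 and LGALS4. CDX2 (chr13:27960918-27969315), the homeobox factor of intestinal identity, fell from 30.6, 28.8 and 29.1 CPM to 14.6, 16.8 and 15.9 CPM (-0.9 ± 0.09, adjusted p = 2.11e-08), with no overlap. HNF4A, a nuclear receptor of the gut and liver epithelium, fell from 144.2, 131.9 and 150.8 CPM to 112.0, 102.9 and 103.1 CPM (-0.42 ± 0.07), and KLF4, a factor of differentiated cells, by 0.44 on the log2 scale. Beside CDH17, the largest falls were those of FABP1, the fatty acid carrier of enterocytes (-1.55), and of the adhesion molecules CEACAM6 and CEACAM5 (-1.55 and -1.38). FABP1 was scarce, at 1.14, 1.24 and 1.39 CPM against 0.636, 0.272 and 0.383 CPM, and the CEACAM genes share sequence. The higher members were ALPP, an alkaline phosphatase (1.66), MUC1, a membrane mucin (0.96), KLF5, a factor of proliferating crypt cells (0.77), and TFF3, a trefoil peptide (0.37), which did not pass without scramble replicate 1 or 3 or siLonp1 replicate 2, or with library size alone (adjusted p = 0.0528 to 0.0798). VIL1, which encodes villin, was at 344.9 to 350.3 CPM in scramble and at 330.2 to 352.6 CPM in siLonp1 and did not pass.

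**Figure D3:**
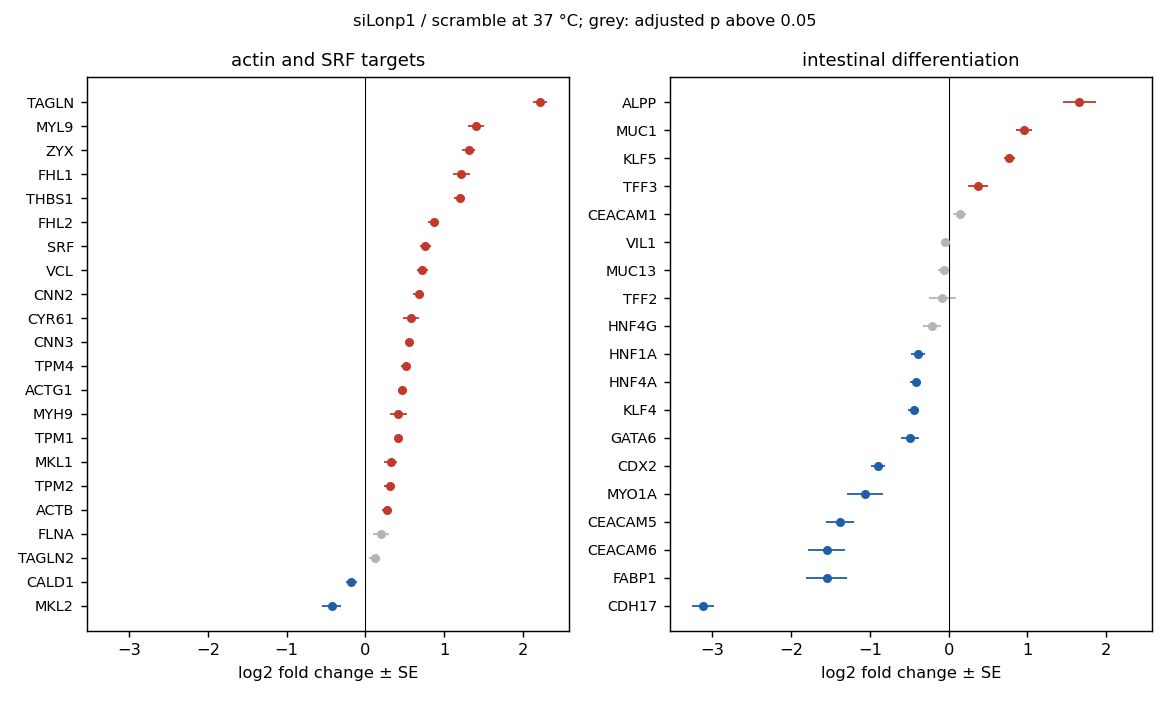
Log2 fold change of siLonp1 over scramble at 37 °C with its standard error for each member of the actin and SRF list (left, 22 genes) and of the intestinal differentiation list (right, 19 genes), with red for higher, blue for lower and grey for genes that did not pass. On the left 18 genes lie to the right of 0 in red, and on the right 10 genes lie to the left in blue, with CDH17 farthest out.

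Cell cycle genes moved in small steps. In the list of G1/S and replication, 28 of 51 members were lower (54.9%), 8 were higher (15.7%) and 15 did not pass, with a median of -0.21, and no member changed by more than 2-fold. E2F7, a repressor of the E2F family, GINS4, of the replicative helicase, POLE2, of DNA polymerase epsilon, and CHAF1B, of the chromatin assembly factor, fell by 0.63, 0.54, 0.48 and 0.43 on the log2 scale. MCM2, a helicase subunit, was at 362.9, 373.6 and 379.8 CPM against 304.2, 277.1 and 281.9 CPM (-0.37 ± 0.06), while PCNA had a change of -0.01 ± 0.06. The 8 higher members were led by regulators of the G1/S step: the cyclins CCNE1 (0.9 ± 0.09), CCNE2 (0.83 ± 0.12) and CCND1 (0.54 ± 0.08), and CDKN1A (0.84 ± 0.13), which encodes the inhibitor p21. CCNE2 was at 26.4, 25.6 and 23.6 CPM in scramble and at 42.7, 45.1 and 46.9 CPM in siLonp1, with no overlap. Of 39 genes of G2/M and mitosis 15 were lower (38.5%) and 6 were higher, with a median of -0.12. ESPL1, the protease separase, and CDC25C, the phosphatase of mitotic entry, fell by 0.72 and 0.62 on the log2 scale, PRC1, of the central spindle, rose by 0.76 ± 0.05, and MKI67 did not pass (-0.02 ± 0.13).

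Among mitochondrial genes, the proteases other than LONP1 did not rise as a group. Of 21 members of the protease list, LONP1 included, 10 were lower (47.6%), 2 were higher and 9 did not pass, with a median of -0.15. OMA1, the stress-activated protease of the inner membrane, fell from 12.9, 13.2 and 13.9 CPM to 8.52, 7.31 and 8.56 CPM (-0.71 ± 0.09, adjusted p = 1.59e-06). XRCC6BP1 (ATP23) and MIPEP, a presequence peptidase, fell by 0.47 and 0.39 on the log2 scale. The matrix protease ClpXP moved apart in its 2 parts, since the peptidase CLPP was higher (0.38 ± 0.08) and the unfoldase CLPX lower (-0.16 ± 0.06). AFG3L2 was lower (-0.15 ± 0.05), YME1L1 did not pass (-0.04 ± 0.06), and LACTB, a filament-forming serine protease of the intermembrane space, was higher (0.59 ± 0.08). Of the genes whose proteins are known as LONP1 substrates, ALAS1 was lower (-0.17 ± 0.07), and TFAM and COX4I1 did not pass. TFAM, the packaging factor of mitochondrial DNA, was at 271.0, 269.7 and 272.6 CPM in scramble and at 264.0, 256.2 and 280.0 CPM in siLonp1. Some calls this small lay close to the limit and were lost when a single library was left out. AFG3L2 and ALAS1 did not pass without scramble replicate 1 or 2 or siLonp1 replicate 1 or 2, both did not pass with no filter on low counts, and ALAS1 also did not without siLonp1 replicate 3 (adjusted p = 0.0505 to 0.14). CLPX did not pass without scramble replicate 1 or siLonp1 replicate 1 or 2, or with no filter (adjusted p = 0.0648 to 0.112). The values above are mRNA levels, and the level of the proteins was not measured here.

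Mitochondrial chaperones did not rise either. Of 10 members 8 did not pass and 2 were lower, TRAP1, the mitochondrial HSP90 (-0.39 ± 0.06), and DNAJA3, a partner of mitochondrial HSP70 (-0.21 ± 0.06). HSPD1, the chaperonin HSP60 and the usual marker of the mitochondrial unfolded protein response, was at 1415.7, 1356.5 and 1405.7 CPM against 1264.0, 1238.7 and 1321.2 CPM (-0.13 ± 0.06, adjusted p = 0.105). The 6 libraries of HSPD1 did not overlap between groups, although the test did not pass. HSPE1 and HSPA9 had changes of -0.18 ± 0.13 and -0.04 ± 0.05, and their libraries overlapped between groups.

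Mitochondria translate their own mRNAs with ribosomes and synthetases made in the nucleus. Of 18 mitochondrial aminoacyl-tRNA synthetases 10 were lower (55.6%), 1 was higher and 7 did not pass, with a median of -0.22, whereas of 20 cytosolic synthetases 6 were lower and 6 higher, with a median of -0.01. HARS2, AARS2, TARS2 and EARS2 were lower by -0.44, -0.4, -0.37 and -0.34, and CARS2 was higher (0.24 ± 0.06). HARS2 was at 48.2, 50.1 and 49.2 CPM in scramble and at 36.4, 33.8 and 38.8 CPM in siLonp1, with no overlap. Of 78 mitochondrial ribosomal protein genes 22 were lower (28.2%), 6 were higher (7.69%) and 50 did not pass, with a median of -0.09. MRPL2 and MRPS18B were lower by -0.57 and -0.49, and MRPS6 was higher by 0.97 ± 0.07, from 28.5, 26.6 and 25.7 CPM to 52.3, 51.4 and 54.2 CPM.

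The respiratory chain genes of the nucleus stood close to 0. Of 38 genes listed for complex I by their names 5 were higher and 6 lower, with a median of -0.01. The largest change was that of NDUFA4L2 (1.12 ± 0.22), known from hypoxia. It was listed by its name and is a paralog of NDUFA4, a subunit of complex IV, so it is no measure of complex I. NDUFA5 followed (0.6 ± 0.08). Of 13 genes of complex IV 3 were higher and 10 did not pass, and medians of complexes II, III and IV and of ATP synthase lay between -0.04 and 0.09. ATP5G1, a copy of the c subunit, was lower by -0.62 ± 0.07, SDHA by -0.31 ± 0.05 and CYC1 by -0.4 ± 0.09. Among 45 assembly factors 11 were lower and 4 higher, led by FOXRED1, of complex I assembly (-0.7 ± 0.07). Of 30 genes that maintain and transcribe mitochondrial DNA 8 were lower and 5 higher. TOP1MT, the mitochondrial topoisomerase, was the exception in size, at 21.3, 21.1 and 20.5 CPM against 53.7, 59.7 and 54.7 CPM (1.42 ± 0.07, adjusted p = 2.49e-13). Genes encoded by mitochondrial DNA were not analysed here.

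The integrated stress response couples several kinases to the translation of ATF4. Of its 31 members 10 were higher (32.3%), 10 were lower (32.3%) and 11 did not pass, with a median of -0.02, close to the 26.7% and 23.2% of all genes. ATF4, the transcription factor of this response, was lower, at 661.8, 666.9 and 628.5 CPM against 551.6, 567.4 and 544.1 CPM (-0.23 ± 0.05, adjusted p = 0.000658). DDIT3, which encodes CHOP, and CHAC1, a glutathione-degrading target, were lower by -0.47 ± 0.11 and -0.64 ± 0.16, and SESN2, a stress-induced inhibitor of mTORC1, by -1.02 ± 0.12. ASNS, asparagine synthetase, went the other way, from 191.0, 197.7 and 150.5 CPM to 336.3, 333.1 and 351.5 CPM (0.92 ± 0.12, adjusted p = 7.55e-07). CBS, of cysteine synthesis, and the stress cytokine GDF15 were higher by 0.79 ± 0.13 and 0.52 ± 0.09. TRIB3, a further ATF4 target, did not pass (-0.02 ± 0.07).

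In the list of the unfolded protein response of the endoplasmic reticulum, 12 of 28 members were higher (42.9%) and 3 were lower, with a median of 0.15. HYOU1 (0.43 ± 0.06) and HSPA5, the chaperone BiP (0.17 ± 0.05), were higher, the latter not without scramble replicate 3 (adjusted p = 0.0681) or with library size alone (adjusted p = 0.133). HERPUD1, of the degradation machinery, was lower, at 67.0, 71.2 and 68.0 CPM against 34.9, 42.8 and 41.3 CPM (-0.79 ± 0.08, adjusted p = 2.1e-08). The cytosolic heat shock genes stood near 0 at 37 °C: of 23 members 3 were higher, 3 lower and 17 did not pass, with a median of 0.04. HSF1, the heat shock factor that the study places beside LONP1, was lower (-0.24 ± 0.07, adjusted p = 0.00754; adjusted p = 0.0524 without siLonp1 replicate 3) and HSF2 did not pass (0.15 ± 0.07, adjusted p = 0.0699). HSPA8, HSP90AA1 and DNAJB1 did not pass, with changes of 0.15 ± 0.07, 0.07 ± 0.07 and 0.22 ± 0.11. HSPA1A was higher (0.36 ± 0.1) and its near-identical copy HSPA1B did not pass (0.04 ± 0.12), and reads of these copies can be split between them. RPS18, the reference gene of the study's qRT-PCR, varied among scramble libraries and did not pass, at 1225.5, 1592.7 and 1383.6 CPM against 1432.6, 1373.3 and 1458.6 CPM (0.02 ± 0.11).

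**Figure D4:**
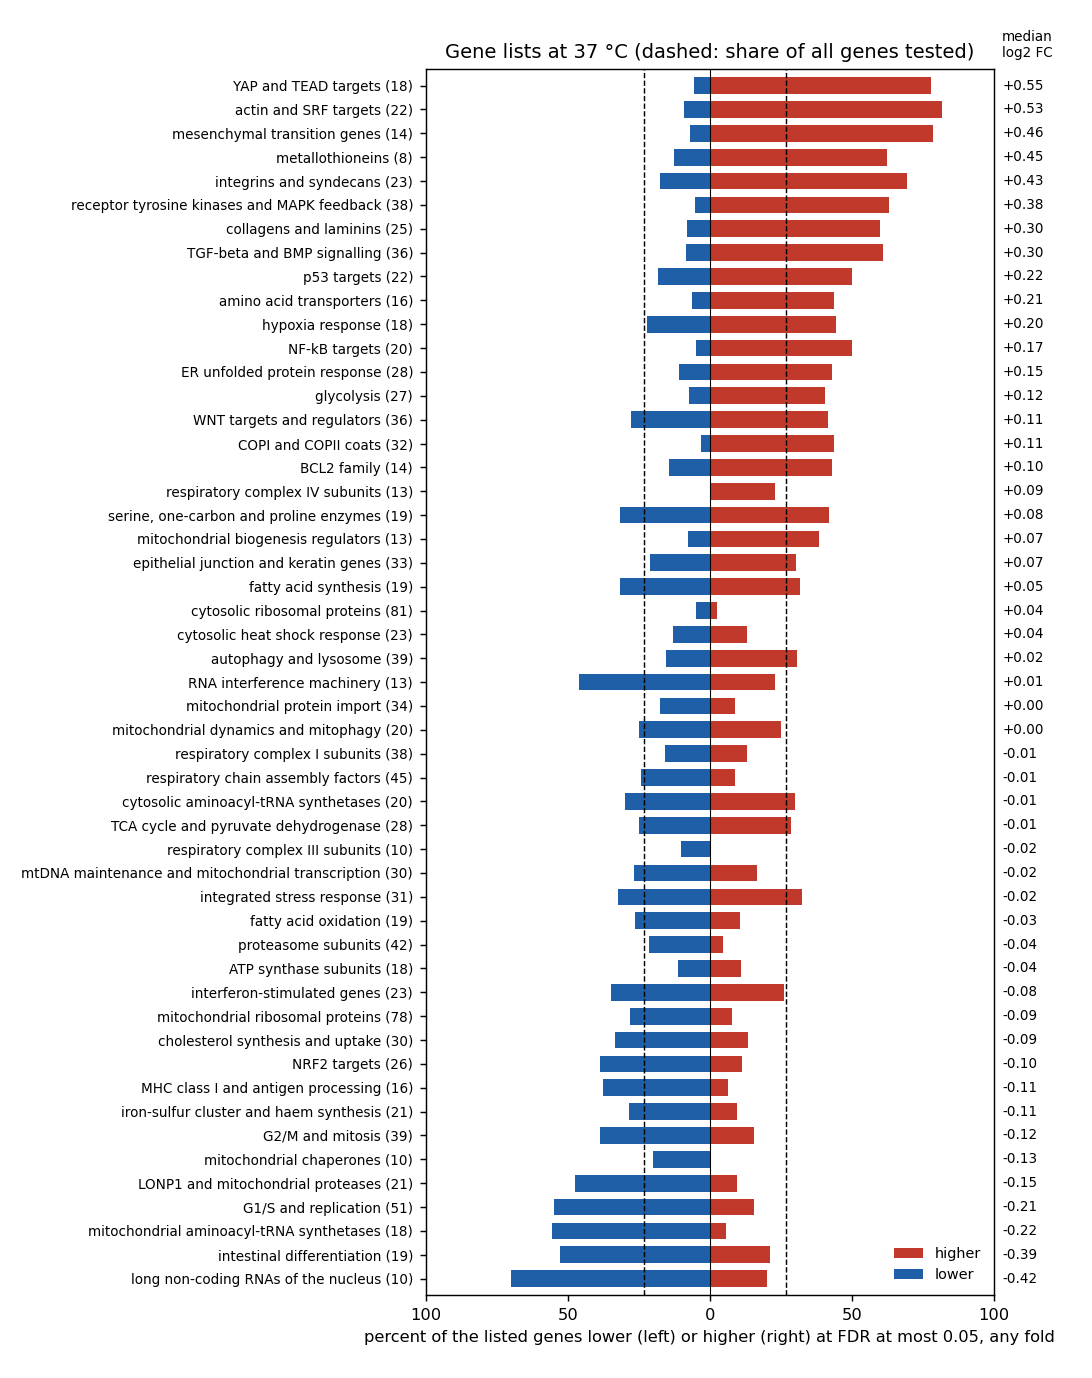
Percent of the members of each gene list that were higher (red, right) or lower (blue, left) at an adjusted p of at most 0.05 at 37 °C, with the number of members in parentheses, the median log2 fold change at the right edge, and dashed lines at the 26.7% and 23.2% of all 12388 genes. Lists are ordered by their median, for lists of at least 8 members; the YAP and TEAD list with a median of 0.55 and the actin and SRF list with 0.53 stand at the top.

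Other stress and metabolic lists differed in direction. Of 26 NRF2 targets 10 were lower (38.5%) and 3 higher, with a median of -0.1. NQO1, a quinone reductase, fell from 528.1, 533.0 and 527.2 CPM to 345.5, 328.7 and 362.6 CPM (-0.62 ± 0.05, adjusted p = 3.37e-09), as did AKR1C3, an aldo-keto reductase (-0.72), and FTL, the ferritin light chain (-0.6), whereas HMOX1, haem oxygenase 1, was higher (0.79 ± 0.15). Of 8 genes of the metallothionein list 5 were higher and 1 lower, led by MT2A, a binder of zinc and copper, at 120.0, 113.1 and 109.1 CPM against 232.3, 247.1 and 208.3 CPM (1.01 ± 0.07), and these copies share sequence. Of 18 hypoxia genes 8 were higher (44.4%) and 4 lower, with NDRG1 (1.15), CA12 (1.03) and CA9 (1.02) as the largest rises, EGLN3 lower (-0.71) and VEGFA not passing (0.1 ± 0.07). HIF1A mRNA was higher by 0.6 ± 0.07. Of 27 glycolysis genes 11 were higher (40.7%) and 2 lower, led by ALDOC, an aldolase (1.21), and the transporter SLC2A3 (0.81), while LDHA did not pass (-0.04 ± 0.07).

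Of 20 NF-kB targets 10 were higher (50%) and 1 lower, and the chemokines CXCL8, CXCL1 and CXCL3 rose by 1.64, 1.07 and 1.01. CXCL8 was at 13.7, 13.7 and 12.7 CPM in scramble and at 36.8, 43.4 and 45.1 CPM in siLonp1. NFKBIA, the inhibitor that NF-kB induces, did not pass (0.12 ± 0.07), and BIRC3 was lower (-0.61). Of 23 interferon-stimulated genes 6 were higher and 8 lower, with a median of -0.08. Of 22 p53 targets 11 were higher (50%) and 4 lower, with TP53INP1 (1.43) and PHLDA3 (1.38) as the largest rises, MDM2 higher by 0.28 ± 0.08 and FAS lower by -0.99 ± 0.19. Of 36 WNT genes 15 were higher (41.7%) and 10 lower (27.8%). The ligands and the secreted inhibitor named above rose, as did VANGL2, of planar polarity (1.05), and LGR6, an R-spondin receptor (0.99), while LEF1, a nuclear partner of beta-catenin, fell by 1.05 on the log2 scale and AXIN2, the usual readout of beta-catenin, did not pass (-0.08 ± 0.09). Of 32 genes of COPI and COPII coats 14 were higher (43.8%) and 1 lower, led by SAR1B, the GTPase that starts the COPII coat (1.35 ± 0.08), with SEC23A, its partner in the coat, lower (-0.55 ± 0.06). Of 81 cytosolic ribosomal protein genes 75 did not pass, with 2 higher and 4 lower.

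Of 10 long non-coding RNAs of the nucleus and of snoRNA hosts 7 were lower and 2 higher, with a median of -0.42. GAS5 was at 217.4, 235.4 and 226.7 CPM against 153.6, 162.3 and 154.0 CPM (-0.53 ± 0.07), and NEAT1 was lower by -0.57 ± 0.1. MALAT1 went the other way (0.69 ± 0.12).

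The same contrast was made in heated cells, where siLonp1 was compared with scramble in libraries that share no sample with those at 37 °C. Of the 295 raised genes, 286 (96.9%) were higher in HS and 285 (96.6%) in HS+REC, where 28.2% and 26.8% of all 12388 genes were higher. Of the 157 lowered genes, 148 (94.3%) were lower in HS and 145 (92.4%) in HS+REC, where 26.9% and 27.7% of all genes were lower. In both conditions together, 281 raised and 141 lowered genes passed in the same direction. With the fold limit, 205 raised genes (69.5%) and 104 lowered genes (66.2%) passed in HS, and 215 and 96 in HS+REC. The median log2 fold change of the raised genes was 1.23 at 37 °C, 1.19 in HS and 1.23 in HS+REC, and that of the lowered genes was -1.24, -1.18 and -1.11. Across all 12388 genes, which are not independent replicates, the effects at 37 °C correlated with those in HS at a Pearson r of 0.88 and with those in HS+REC at 0.89. TAGLN rose by 2.38 and 2.69 in the 2 heated conditions, and CDH17 changed by -3.41 and -3.11. The actin and SRF list had medians of 0.45 and 0.37 there against 0.53 at 37 °C, and the intestinal list -0.45 and -0.16 against -0.39. The YAP and TEAD list had 0.32 and 0.46 against 0.55, and the TGF-beta list 0.12 and 0.27 against 0.30. Further lists also stood elsewhere than at 37 °C. In the integrated stress response, 16 members were higher and 2 lower in HS, and 18 higher and 3 lower in HS+REC, with medians of 0.22 and 0.31 against -0.02. Among cytosolic heat shock genes, 15 were higher and 1 lower in HS, and 13 and 1 in HS+REC, with medians of 0.24 and 0.22 against 0.04. Of 81 cytosolic ribosomal protein genes, 56 were higher and 2 lower in HS, and 24 and 3 in HS+REC. The change of a list between conditions was not tested.

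The interaction tests whether the siLonp1 effect differed from that at 37 °C. It passed for 236 genes in HS (1.91%) and for 199 in HS+REC (1.61%), and for 19 and 16 of the 452 genes. Leaving out 1 library at 37 °C left 105 to 192 genes in HS and 99 to 146 in HS+REC, and the count fell by more than 1.5 times without any 1 of the 3 scramble libraries or siLonp1 replicate 1 or 2. LONP1 was among them, with a deeper fall in HS (-4.19) and a smaller one in HS+REC (-3.01). Among the 19 of the 452 genes that passed in HS, the largest differences were those of CCDC183-AS1, SGK1, SOCS3, RASD1, TMEM159 and SESN2. SGK1 is a kinase that glucocorticoids and stress induce, SOCS3 an inhibitor of cytokine signalling, RASD1 a small GTPase and TMEM159 a lipid droplet protein. CCDC183-AS1 was lowered at 37 °C (-1.33 ± 0.26) and had a change of 0.39 in HS, which did not pass by itself (interaction adjusted p = 0.0179). SGK1 was raised at 37 °C (1.19 ± 0.17) and had a change of -0.19 in HS (interaction adjusted p = 0.00281), and SOCS3 had 1.94 ± 0.13 and 0.89 (interaction adjusted p = 0.00252). SESN2 was lowered at 37 °C and had changes of -0.18 in HS and -0.14 in HS+REC. In HS+REC the largest of the 16 that passed were those of CXCR4, HOXA-AS3, EGR3, SGK1, CMYA5 and TMEM159. CXCR4 is a chemokine receptor, EGR3 an immediate early factor and CMYA5 a gene of muscle. EGR3 was raised at 37 °C (1.06 ± 0.13) and had a change of 0.01 in HS+REC (interaction adjusted p = 0.00261), and CXCR4 had 1.28 ± 0.19 and -0.25. The antisense genes CCDC183-AS1 and HOXA-AS3 overlap other genes, and the strand setting of the counting is not given in the sources used here, so their reads cannot be told apart from those of the partner.

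**Figure D5:**
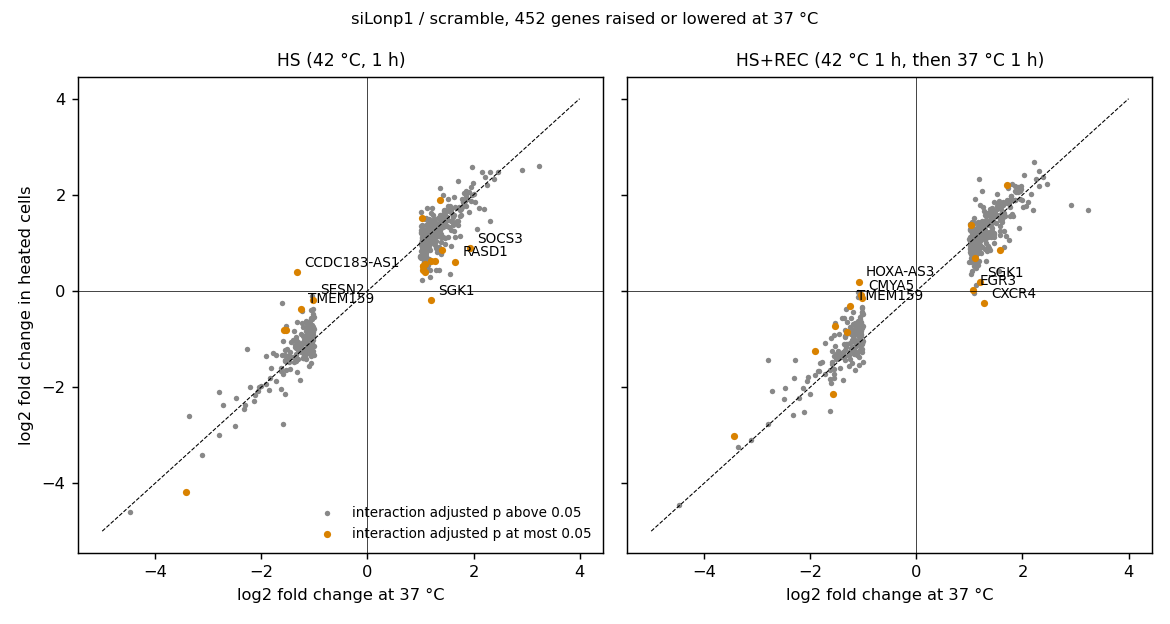
Log2 fold change of siLonp1 over scramble in HS (left) and HS+REC (right) against that at 37 °C for the 452 raised and lowered genes, with genes whose interaction passed in orange and the dashed line where both effects are equal. Most genes lie along the line. Among the genes that lie near or across 0 are CCDC183-AS1, SGK1 and SESN2 in HS, and CXCR4, EGR3, HOXA-AS3, CMYA5 and SESN2 in HS+REC.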

How the data were processed

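RNAseq was measured in 18 libraries of SW620 cells, in 6 groups of 3 taken from the labels. The authors deposited 1 table of raw read counts per gene, not normalized. Per the labels (the submitters' processing notes) and the methods, reads of a stranded poly(A) library were mapped to hg38 with STAR 2.7.3a and counted with featureCounts over UCSC genes, with R 3.6.3 and edgeR named for the statistics. The strand setting and the treatment of reads that map to several places are not given in the sources used here, which can move counts of antisense genes and of near-identical copies.

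From the deposited counts, genes above 1 CPM in at least 3 of 18 libraries (12832) were kept, scaled by TMM and fitted with edgeR 4.0.16 (R 4.3.3) as 6 groups by quasi-likelihood, with 3 contrasts of siLonp1 over scramble and 2 interactions. Benjamini-Hochberg adjustment ran over the 12832 genes. The 12388 genes above 1 CPM in at least 3 of the 6 libraries at 37 °C are described. All 18 libraries share an estimate of the spread. Replicates of a group differed by more than counting noise (chi-square per degree of freedom 3.64 to 9.34), so no library was counted as a repeat of another. The depth was 38838617 to 45013503 counts per library at 37 °C.

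Genes named are LONP1, HSF1, HSF2 and RPS18, the 12 raised and 12 lowered genes with the largest change, non-overlapping libraries and at least 0.5 CPM in the lower group, the 8 higher and 8 lower genes with the smallest p, and up to 4 per direction and up to 4 central members of each list. Up to 6 raised or lowered genes per heated condition, with the largest interaction among those that passed, are named too. Some genes that this rule names are not reported here. The genes, the 54 lists and the named genes were chosen with earlier results of these data known. RefSeq positions and promoters (GRCh38.p14) were matched by symbol or synonym for 12224 genes and 9906 genes. Alternatives were RLE scaling, library size alone, no filter or a stricter one, DESeq2 1.42.0, the edgeR likelihood ratio test, the 6 libraries at 37 °C alone, a replicate block, an adjusted p limit of 0.01, a prior count of 2 and leaving out each library.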

Additional observations from a re-analysis of the deposited data

Results flagged for a closer look

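For the genes below the effect of siLonp1 differed between a heated condition and 37 °C by the interaction term of edgeR's quasi-likelihood fit, with Benjamini-Hochberg adjusted p between 0.000468 and 0.049. Each value is the effect in the heated condition minus that at 37 °C on the log2 scale, from 3 libraries a group.

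In HS, LONP1 itself differed by -0.76 and in HS+REC by 0.43. Among stress genes, the difference in HS was 0.48 for ATF4, 1.08 for CHAC1, 0.84 for SESN2 and 0.75 for HERPUD1, all of which were lower at 37 °C. In HS+REC it was 0.89 for SESN2, 0.75 for HERPUD1, 0.50 for TRIB3, 0.35 for HSPD1 and -0.29 for AFG3L2.

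Among genes of adhesion and signalling, the difference in HS was -0.67 for CYR61, -0.65 for F3, -0.49 for AXIN2, -1.38 for SGK1, -1.05 for SOCS3 and -1.05 for RASD1. In HS+REC it was -1.53 for CXCR4, -1.05 for EGR3, -1.01 for SGK1, -0.53 for SNAI1, 0.50 for DUSP5 and 0.66 for TNFRSF11B. TGFBR3 differed in opposite directions, by 0.76 in HS and by -0.57 in HS+REC. TMEM159 differed by 0.89 and 0.95, CMYA5 in HS+REC by 0.97, and MALAT1 by -0.67 and -0.88 in HS and HS+REC. The antisense genes CCDC183-AS1 in HS and HOXA-AS3 in HS+REC differed by 1.72 and 1.28.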

How the results depend on the processing

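The fall of LONP1 kept its direction and its call under every alternative run, and 384 to 452 of the 452 raised and lowered genes were called again, except over genes above 1 CPM in all 6 libraries, where 309 were. Raised and lowered genes numbered 481 and 374 with no filter on low counts, and 81 were lowered with the stricter filter. The HS and HS+REC interactions passed for 497 and 385 genes with no filter, 436 and 309 by DESeq2, 458 and 349 by the likelihood ratio test, 80 and 56 at an adjusted p limit of 0.01, and 105 to 192 and 99 to 146 without single libraries.

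Scaling by library size alone moved list medians to -0.22 for mitochondrial proteases, -0.17 for mitochondrial ribosomal proteins, -0.09 for the integrated stress response, -0.30 for mitochondrial synthetases, -0.46 for intestinal genes, 0.22 for TGF-beta and for collagens, 0.31 for receptor kinases, 0.36 for integrins and -0.28 for G1/S. It turned the sign of the medians of LONP1 substrates (-0.04), mitochondrial import (-0.07), dynamics (-0.07) and biogenesis (-0.00), heat shock (-0.03), fatty acid synthesis (-0.03), junctions (-0.00), lysosome (-0.05) and cytosolic ribosomal proteins (-0.04), and of CTGF (-0.04), EPCAM (-0.00), HSP90AA1 (-0.00), HSPA1B (-0.03), LAMC1 (-0.02) and RPS18 (-0.05). Without a filter, medians were -0.08 for LONP1 substrates, 0.01 for fatty acid oxidation, -0.05 for intestinal genes and 0.22 for collagens, and MKI67 and PCNA stood at 0.00. The stricter filter gave -0.15 for intestinal genes and 0.47 for integrins.

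Without single libraries, medians ranged from 0.26 to 0.35 for TGF-beta, 0.23 to 0.42 for collagens, -0.19 to -0.11 for proteases, -0.24 to -0.18 for mitochondrial synthetases and -0.06 to 0.00 for the integrated stress response, and turned to 0.02 for the TCA cycle and 0.01 for fatty acid oxidation without siLonp1 replicate 1. Small changes turned sign: RPS18 to -0.07 without scramble replicate 1 (range to 0.12), COL1A1 to -0.02 (to 0.13), CTGF to -0.01 (to 0.08) and TRIB3 to 0.04 without scramble replicate 2, PCNA to 0.01 and MKI67 to 0.10 without scramble replicate 3, CTGF to -0.01 and MKI67 to 0.04 without siLonp1 replicate 1, TFAM to 0.00 without siLonp1 replicate 2 and MKI67 to 0.07 without siLonp1 replicate 3. The cause was not tested.

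Deviations of same-numbered libraries correlated at -0.02, -0.06 and -0.07, and those of differently numbered libraries at -0.03 to 0.1. Same-numbered libraries were thus no more alike than others. With so few libraries a group, this cannot tell whether they came from the same experiment, so pairing remains unknown. With the replicate number as a block 294 genes were raised and 159 lowered.

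Genes near 1 CPM carry few counts, so their fold changes are the least precise, and small changes of either sign depend on scaling. The 3 replicates limit what a single gene can show. The p-values set a difference between groups against the spread between replicates, which was estimated over all 18 libraries.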
